A study of Homo sapiens with 42 samples.

Results

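Chromatin accessibility was described at 10 genes that make up the core of the Hippo pathway and its TEAD transcription factors: YAP1, WWTR1 (the gene of the protein TAZ), TEAD1, TEAD2, TEAD3, TEAD4, LATS1, LATS2, VGLL3 and VGLL4. Members were chosen by gene symbol, as every region that the authors' annotated tables assign to one of these genes. This gave 276 of 242490 annotated regions over 4 lines, or 78 of 69565 for PC9, 89 of 76952 for H1975, 33 of 30709 for HCC827 and 76 of 65264 for HCC2935. The rule itself uses symbols and no measured value. The data were ATAC-seq libraries, 42 in 14 groups of 3 replicate libraries, from the EGFR-mutant lung adenocarcinoma lines PC9, H1975, HCC827 and HCC2935. In all lines, the control cells grew without drug for 21 days and then received DMSO for 3 days. Drug-tolerant persister (DTP) cells received 500 nM osimertinib, an inhibitor of mutant EGFR, for 24 days. In the sequential combination, 500 nM osimertinib for 21 days was followed by 150 nM AZD5153, a second compound, for 3 days, and whether osimertinib stayed on meanwhile is not stated. PC9 and H1975 also had a group given AZD5153 alone, at 150 nM for 3 days after 21 days without drug. Each line is a single cancer cell line, and DTP cells are whatever cells remained in culture after the drug.

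The Hippo pathway is a kinase cascade that restrains growth. The kinases LATS1 and LATS2 phosphorylate the coactivators YAP1 and TAZ, which keeps them out of the nucleus. Unphosphorylated YAP1 and TAZ enter the nucleus and act on genes through the DNA-binding TEAD factors, and the vestigial-like proteins VGLL3 and VGLL4 bind TEAD at an overlapping surface, VGLL4 as a competitor of YAP1. Accessibility is a measure of open chromatin at a place in the genome, not of the amount of RNA, protein or nuclear YAP1.

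Upstream sequences of 4 genes are shown, since the starts of YAP1, WWTR1, VGLL3 and LATS1 are described by library in what follows. They are the 250 bases before a RefSeq transcription start in GRCh38.p14, read 5′ to 3′ on the strand of the gene. Capitals mark the motifs searched on both strands: GGAATG, bound by TEAD, TGANTCA, bound by AP-1, CCGGAA, bound by ETS factors, and the GC box GGGCGG. The YAP1 sequence is at chr11:102110197-102110446 on the plus strand, and the others are on the minus strand, at chr3:149658026-149658275 for WWTR1, chr3:86991150-86991399 for VGLL3 and chr6:149718102-149718351 for LATS1.
YAP1: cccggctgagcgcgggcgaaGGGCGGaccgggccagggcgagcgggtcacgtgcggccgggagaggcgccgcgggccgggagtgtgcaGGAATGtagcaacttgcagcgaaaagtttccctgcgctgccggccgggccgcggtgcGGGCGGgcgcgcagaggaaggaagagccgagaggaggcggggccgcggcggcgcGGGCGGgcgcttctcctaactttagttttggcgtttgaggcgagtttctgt
WWTR1: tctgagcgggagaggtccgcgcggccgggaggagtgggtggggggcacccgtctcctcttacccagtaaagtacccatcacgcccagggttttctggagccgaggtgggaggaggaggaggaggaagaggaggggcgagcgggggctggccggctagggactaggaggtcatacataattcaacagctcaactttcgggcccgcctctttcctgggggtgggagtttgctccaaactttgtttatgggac
VGLL3: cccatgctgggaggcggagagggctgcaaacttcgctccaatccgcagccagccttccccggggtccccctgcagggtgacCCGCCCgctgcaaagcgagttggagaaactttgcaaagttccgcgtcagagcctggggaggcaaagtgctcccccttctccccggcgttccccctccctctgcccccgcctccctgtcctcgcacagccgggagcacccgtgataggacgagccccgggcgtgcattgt
LATS1: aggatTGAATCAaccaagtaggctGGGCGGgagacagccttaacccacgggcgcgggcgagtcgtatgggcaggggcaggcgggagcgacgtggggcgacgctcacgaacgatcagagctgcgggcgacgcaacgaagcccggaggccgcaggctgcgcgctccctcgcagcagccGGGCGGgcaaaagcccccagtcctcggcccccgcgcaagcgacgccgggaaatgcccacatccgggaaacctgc
YAP1 held GGAATG from 162 bases before its start and GC boxes from 230, 105 and 51 bases before it. LATS1 held TGAATCA, a form of the AP-1 motif, from 245 bases before its start and GC boxes from 226 and 74 bases before it. VGLL3 held a GC box on the opposite strand from 169 bases before its start, and none of the 4 motifs was in the WWTR1 window. Among 35116 RefSeq promoter windows of 300 bases, which also hold bases after the start, GGAATG was in 14.0%, TGANTCA in 7.7%, CCGGAA in 17.2% and GGGCGG in 45.0%. Shares over the 250 bases before the start alone were not counted. RefSeq windows were matched for 8 of the 10 genes, all but TEAD1 and TEAD4.

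The tables give raw counts in regions of 502 bases. PC9 libraries held 3989287 to 5193390 counts in all, H1975 libraries 6200672 to 10062505, HCC827 libraries 1724680 to 4242868 and HCC2935 libraries 3968690 to 8066287. Titles and design text name ATAC-seq. The labels give, for extraction, a chromatin precipitation with an antibody to H3K27ac, and the values were read as ATAC-seq. Levels are given as CPM, the count of a region per 1000000 counts of its library in the tested regions, scaled by TMM factors, and the gene sum is the level over all regions assigned to a gene, so it grows with the number of regions and was compared only within a line. The libraries of a group differed little beyond counting noise in PC9 and H1975, where the biological coefficient of variation was 0.988% and 3.20%, against 10.1% in HCC2935 and 45.0% in HCC827. In PC9 9 of 12 same-group pairs, and in H1975 5 of 12, had no excess over counting noise. In these lines the edgeR p values therefore rest mostly on counting noise and measure little spread between separate cultures. Tests were repeated there with the 3 libraries of each group summed and the spread of HCC2935 assumed. The adjusted p of that repeat is called the summed adjusted p below. Where none is given for PC9 or H1975, the adjusted p rests on the small spread alone. Epithelial genes (EPCAM, CDH1, KRT7, KRT8 and KRT18) had a region within 1 kb of a start for 5 of 5 genes in every line. Of the genes of immune, endothelial, fibroblast and muscle cells reported here, PTPRC, DCN and MYOD1 had no annotated region in any line. Endothelial CDH5 had a region at a start in PC9, H1975 and HCC2935, and PECAM1 within 1 kb in PC9 and H1975. The CDH5 start held 10.4 to 15.3, 15.9 to 19.6 and 20.7 to 29.0 CPM in control libraries of PC9, H1975 and HCC2935. The epithelial starts there held 3.49 to 43.4, 9.71 to 40.2 and 13.8 to 46.0 CPM. The summed level of CD3E, PECAM1 and CDH5 was 427 to 472 CPM in PC9 control and 267 to 279 CPM in PC9 DTP libraries, 312 to 320 and 241 to 251 CPM in H1975, 91.6 to 103 and 59.9 to 106 CPM in HCC827, where CD3E had no region and the sum holds PECAM1 and CDH5, and 248 to 265 and 218 to 224 CPM in HCC2935. EPCAM, an epithelial adhesion gene, fell in DTP cells of all 4 lines by gene sum, with log2 changes of -0.46 (PC9), -0.62 (H1975), -1.04 (HCC827) and -0.69 (HCC2935). Of the 5 epithelial genes, 5 fell in PC9, 2 fell (EPCAM and CDH1) and 3 rose (KRT7, KRT8 and KRT18) in H1975, and 2 fell (EPCAM and KRT7) in HCC827 and in HCC2935, with list medians of -0.28, 0.14, -0.50 and -0.04 in that order. Of the lung epithelial genes NKX2-1, NAPSA and SFTPB, none of 2 with regions was called in PC9 or in HCC827, NAPSA (-0.85) and SFTPB (-1.33) fell in H1975, and NKX2-1 (-0.80) and NAPSA (-0.56) fell in HCC2935. The part of cell state or cell makeup in the results was not tested, and in bulk libraries fewer cells of a kind and less open chromatin per cell cannot be told apart.

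Between DTP and control cells, WWTR1 was the member with a lower gene sum in all 4 lines, called in PC9, H1975 and HCC2935. VGLL3 rose in HCC2935, and TEAD3 rose in H1975 and fell in HCC2935. Counts of members are read beside the share of all genes called in the same line. At an adjusted p under 0.05, 4 of 10 member gene sums were called in PC9, all lower, where 42.2% of all genes were called (22.7% lower and 19.5% higher), with a median change of the members of -0.15. In H1975 7 of 9 were called, 4 higher and 3 lower, against 69.1% of all genes (34.1% higher, 34.9% lower). With libraries summed, 1 of 10 was called in PC9, against 21.4% of all genes, and 5 of 9 in H1975, against 45.7%. In HCC2935 8 of 10 were called, 4 in each direction, against 50.4% (25.2% each way). No member of HCC827 was called among 8 by edgeR, against 2.43% of all genes, and DESeq2 also called 0. An unadjusted edgeR p under 0.05 was found for 3 of the 8, against 18.1% of all genes. Only 30.5% of gene sums changed 2-fold were recovered in simulated HCC827 data, so the count of 0 does not show absence of change. With the replicate number as a block, 2 HCC827 gene sums and 2 regions were called, where 10.3% of all genes and 3.88% of all regions were. The median change over all genes was within 0.02 of zero in each line.

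**Figure D1:**
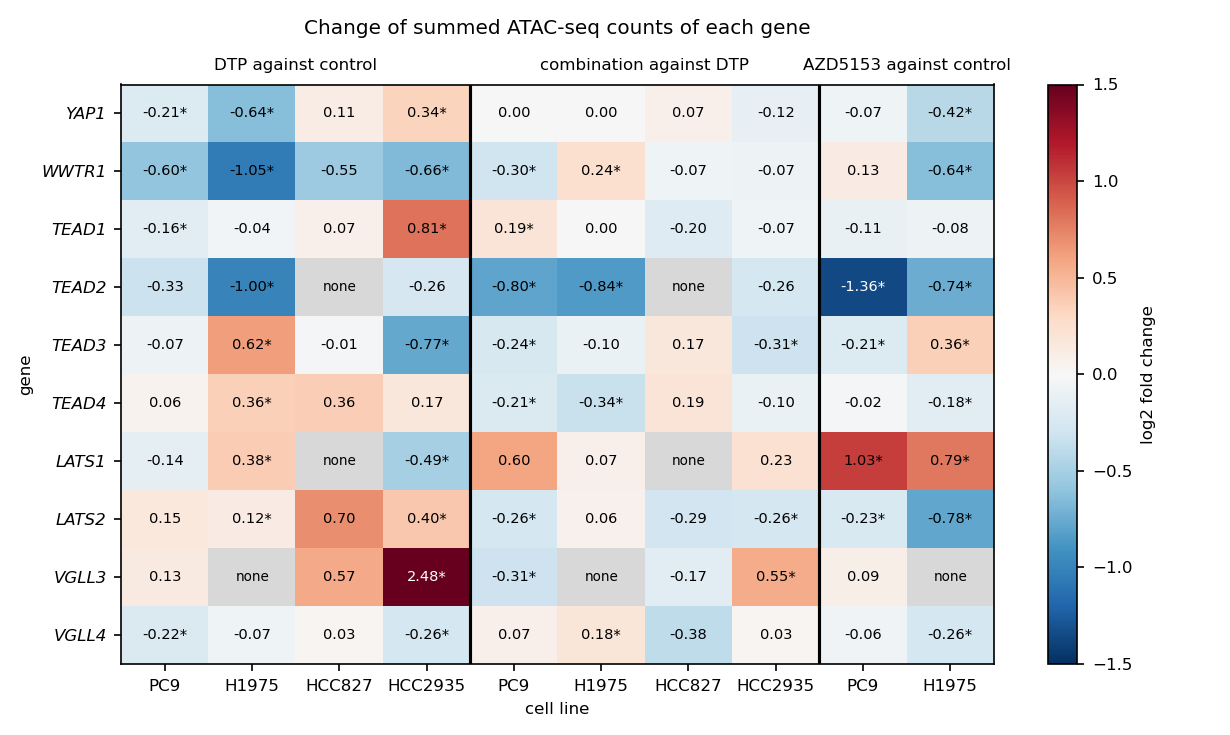
Log2 fold change of the gene sum of each member (rows) in each line (columns), for DTP against control, combination against DTP and AZD5153 against control. Asterisks mark an edgeR adjusted p under 0.05, grey cells mark genes with no region in the line and colours end at 1.5 in either direction, with WWTR1 below zero in all 4 columns of DTP against control and VGLL3 in HCC2935 at 2.48.

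Single member regions were tested over all regions of a line. In PC9 28 of 78 regions were called, 9 higher and 19 lower, where 31.7% of all tested regions were called (15.4% higher, 16.4% lower). In H1975 57 of 89 were called, 25 higher and 32 lower, against 51.9% of all (24.9% higher, 27% lower). HCC2935 had 44 of 76, 30 higher and 14 lower, against 37.3% (18.7% higher, 18.6% lower). With regional medians removed, 31 were called there, 16 higher and 15 lower, against 31.9% (15.9% higher, 16% lower). In HCC827 0 of 33 were called by edgeR and by DESeq2, where edgeR called 0.0219% of all regions. An unadjusted edgeR p under 0.05 was found for 4 of the 33, against 7.46% of all regions. In simulated HCC827 data, 0.0% of the regions changed 2-fold were recovered, so a count of 0 there does not show absence of change. With libraries summed, 10 member regions were called in PC9 (16.2% of all) and 35 in H1975 (33.1% of all).

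WWTR1 encodes TAZ, the paralogue of YAP1, and among start regions the largest falls in DTP cells lay inside it. The internal start of a short transcript, ENST00000472417.1, lies over 80 kb downstream of the RefSeq start, and in PC9 the region over it, chr3:149576126-149576627, held 15.3, 12.2 and 8.68 CPM in control libraries and 1.22, 1.80 and 4.00 CPM in DTP libraries. The groups did not overlap, and the change was -2.32 on the log2 scale (SE 0.26, adjusted p = 2.39e-16, summed adjusted p = 7.93e-09). In H1975 the matching region, chr3:149576109-149576610, held 51.3, 48.7 and 44.4 CPM against 6.65, 7.94 and 8.28 CPM, a log2 change of -2.64 (SE 0.10, adjusted p = 3.19e-68, summed adjusted p = 2.34e-33). In HCC2935 the region at chr3:149576084-149576585 held 20.3, 14.2 and 13.1 CPM against 4.37, 1.98 and 3.43 CPM, a log2 change of -2.32 (SE 0.26, adjusted p = 1.53e-09). HCC827 started from a like level, 24.4, 21.6 and 30.4 CPM, and its DTP libraries held 11.5, 15.9 and 19.9 CPM at chr3:149576136-149576637. All 3 were below the controls, but the log2 difference of -0.67 (SE 0.42) had an adjusted p of 0.895 and, with the replicate number as a block, of 0.213. The joint fit called a difference in this change between lines (adjusted p = 1.21e-05). It used 1 spread per region for all lines and no replicate block. The coefficient of variation, however, was 0.988% in PC9 and 45.0% in HCC827. A difference of HCC827 from the other lines is therefore not shown.

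The RefSeq start of WWTR1, whose upstream sequence is printed above, was not called lower in DTP cells of any line. The region over it is assigned by the authors' table to the antisense gene WWTR1-AS1, hence is no member, and reads of the sense and antisense starts cannot be told apart. In PC9 (chr3:149657878-149658379) it held 27.0, 34.0 and 33.2 CPM in control and 41.8, 40.0 and 32.0 CPM in DTP libraries, a log2 change of 0.26 (adjusted p = 0.0385, summed adjusted p = 0.429) with overlapping groups. In H1975 (chr3:149657815-149658316) it held 40.7, 42.9 and 34.5 CPM against 46.7, 41.3 and 47.9 CPM, a change of 0.20 (adjusted p = 0.0161, summed adjusted p = 0.449). HCC827 held 30.4, 38.8 and 40.9 CPM against 40.8, 38.6 and 50.5 CPM, and HCC2935 21.6, 27.2 and 19.4 CPM against 18.4, 23.3 and 17.2 CPM, with log2 differences of 0.25 (adjusted p = 1) and -0.20 (adjusted p = 0.304). The RefSeq start differed from control by less than 0.3 on the log2 scale in each line. In H1975 a member region just inside the RefSeq start, chr3:149657273-149657774, named here after its values were seen, rose from 3.09, 3.23 and 3.91 CPM to 6.91, 6.24 and 9.18 CPM (log2 change 1.12, SE 0.19, adjusted p = 1.05e-07, summed adjusted p = 0.00258). An upstream start of WWTR1 at chr3:149736103-149736604 rose in H1975 from 2.01, 3.23 and 2.02 CPM to 7.17, 8.51 and 9.07 CPM (1.76, SE 0.20, adjusted p = 1.11e-14, summed adjusted p = 4.77e-07). The same start changed by 0.64 in HCC2935 (adjusted p = 0.0436) and by 0.43 in PC9 (adjusted p = 0.104).

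**Figure D2:**
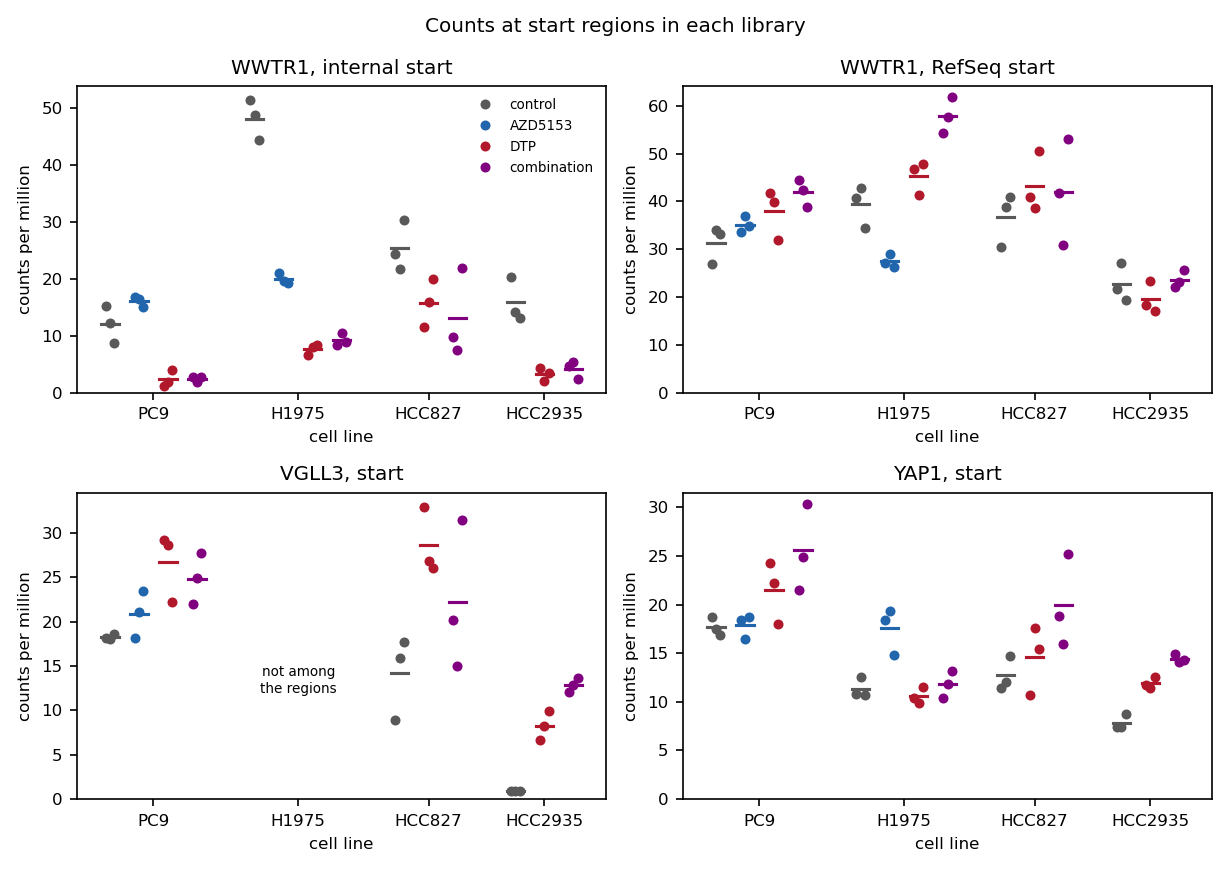
CPM in each library (points) with the group mean (bars) at the internal start of WWTR1, its RefSeq start, the VGLL3 start and the YAP1 start, by line and group. In PC9, H1975 and HCC2935 every DTP library is below every control library at the internal WWTR1 start and not at the RefSeq start, and at the VGLL3 start HCC2935 control libraries lie between 0.874 and 0.939 CPM.

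Several intron regions of WWTR1 fell too, while the regions over 100 kb downstream of the RefSeq start were not called in any line. In H1975 the region chr3:149580041-149580542 held 29.5, 27.8 and 25.5 CPM in control and 2.94, 3.29 and 3.69 CPM in DTP libraries, a log2 change of -3.04 (SE 0.14, adjusted p = 9.28e-57, summed adjusted p = 2.98e-27). A region in the other direction from the RefSeq start, chr3:149678302-149678803, held 6.65, 8.07 and 6.88 CPM against 0.896, 0.907 and 0.784 CPM in H1975 (log2 change -3.05, SE 0.27, adjusted p = 4.99e-23). The PC9 counterpart, chr3:149678349-149678850, fell by 1.40 (SE 0.22, adjusted p = 1.82e-08, summed adjusted p = 0.000279), from 14.9, 8.11 and 12.2 CPM to 4.37, 4.38 and 4.25 CPM. An intron region at chr3:149581679-149582180 was lower in DTP libraries of all 4 lines, called in 3. It fell by 0.94 in PC9, 0.94 in H1975 and 0.59 in HCC2935 on the log2 scale. In HCC827 it held 26.4, 28.6 and 35.4 CPM against 12.2, 11.7 and 19.0 CPM, a log2 difference of -1.05 with adjusted p = 0.435, or 0.0289 with the replicate block. Summed over the gene, WWTR1 held 104, 88.4 and 93.1 CPM in PC9 control and 57.6, 60.2 and 70.1 CPM in DTP libraries (log2 change -0.60, SE 0.07, adjusted p = 1.99e-13, summed adjusted p = 6.23e-05). In H1975 the sums were 262, 258 and 257 CPM against 120, 121 and 134 CPM (log2 change -1.05, SE 0.04, adjusted p = 6.67e-52), and in HCC2935 147, 106 and 134 CPM against 90.2, 79.2 and 76.9 CPM (log2 change -0.66, SE 0.10, adjusted p = 3.56e-06). HCC827 sums of 230, 214 and 210 CPM stood above 129, 134 and 178 CPM in every library, with a log2 difference of -0.55 (SE 0.17) and an adjusted p of 0.112, or 0.0129 with the replicate block.

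**Figure D3:**
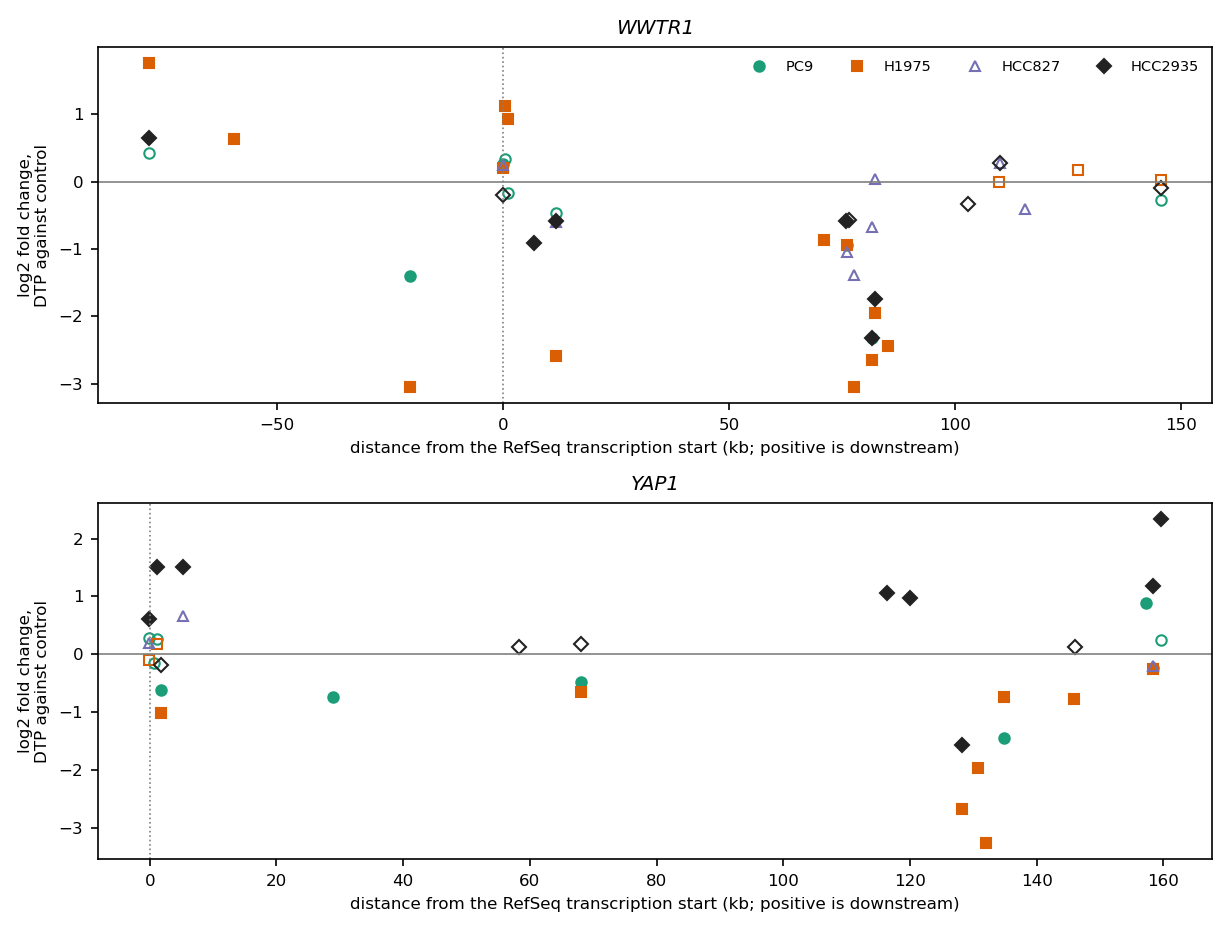
Log2 fold change of DTP against control for each region of WWTR1 and YAP1 by distance from the RefSeq transcription start in kb, with a marker for each line and filled markers for called regions. The internal WWTR1 start, 81.7 kb downstream in H1975, is below zero in all 4 lines, and the largest fall of a YAP1 region in H1975, PC9 and HCC2935 lies beyond 120 kb.

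YAP1, the other coactivator, showed a different direction in different lines. Its gene sum was 146, 143 and 141 CPM in H1975 control and 93.5, 94.5 and 87.4 CPM in DTP libraries, a log2 change of -0.64 (SE 0.05, adjusted p = 1.87e-26, summed adjusted p = 7.61e-08). In PC9 it fell by 0.21 (SE 0.05, adjusted p = 0.00024), from 189, 192 and 191 CPM to 173, 167 and 155 CPM, and the summed adjusted p was 0.182. In HCC2935 it rose by 0.34 (SE 0.08, adjusted p = 0.000783), from 125, 105 and 111 CPM to 143, 138 and 154 CPM. The tested regions within 5 Mb of YAP1 in HCC2935 had a median change of 0.76, and with regional medians (over 10 Mb) removed the sign turned, to -0.30 (adjusted p = 0.00545). HCC827 sums of 77.1, 95.3 and 103 CPM against 86.9, 103 and 107 CPM overlapped.

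The start of YAP1, over the printed upstream sequence, was not called in the lines where the gene sum fell. It held 10.8, 12.5 and 10.7 CPM in H1975 control and 10.4, 9.87 and 11.5 CPM in DTP libraries, a log2 difference of -0.10 (SE 0.13, adjusted p = 0.554). In PC9 it held 18.7, 17.5 and 16.9 CPM against 24.3, 22.2 and 18.0 CPM, a difference of 0.29 (SE 0.14, adjusted p = 0.092). In HCC2935 it rose by 0.61 (SE 0.20, adjusted p = 0.0143), from 7.43, 7.38 and 8.76 CPM to 11.8, 11.4 and 12.6 CPM, and the change was -0.03 with regional medians removed. The largest fall in each of H1975, PC9 and HCC2935 lay beyond the 3′ end of the gene, in regions the authors' table calls distal intergenic. Smaller called falls lay nearer, at 1.7 kb (-1.01) and 68.0 kb (-0.66) from the start in H1975 and at 1.7 kb (-0.61), 28.9 kb (-0.74) and 68.1 kb (-0.48) in PC9. In H1975 chr11:102238502-102239003 held 18.1, 18.0 and 17.4 CPM in control and 2.82, 2.95 and 2.57 CPM in DTP libraries (log2 change -2.68), and chr11:102242201-102242702 held 6.03, 7.94 and 7.69 CPM against 1.02, 1.13 and 0.112 CPM (-3.26, SE 0.28, adjusted p = 1.67e-23, summed adjusted p = 1.56e-13). In HCC2935 the region matching the first, chr11:102238483-102238984, fell by 1.57 (SE 0.29, adjusted p = 2.41e-05), from 12.2, 5.91 and 8.76 CPM to 4.37, 2.81 and 2.10 CPM, although its neighbourhood rose. In PC9 the largest fall of a YAP1 region was at chr11:102244964-102245465, from 14.9, 14.7 and 19.1 CPM to 5.10, 5.93 and 7.01 CPM (log2 change -1.44, SE 0.19, adjusted p = 3.76e-12, summed adjusted p = 3.28e-05). Which gene these distal regions act on is not known from the annotation, which assigns a region to the nearest start.

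TEAD factors, which carry YAP1 and TAZ to DNA, had no shared direction. TEAD1 had the largest changes in HCC2935, where its gene sum rose from 217, 201 and 218 CPM to 377, 379 and 358 CPM (0.81, SE 0.06, adjusted p = 4.87e-11). Regions within 5 Mb of TEAD1 had a median change of 0.93 in that line, and the change of the sum was -0.07 (adjusted p = 0.395) with regional medians removed. Its start region at chr11:12674152-12674653 rose beyond its surroundings, from 9.83, 12.1 and 11.6 CPM to 24.3, 30.8 and 28.2 CPM, by 1.33 (SE 0.16, adjusted p = 4.24e-09) and by 0.45 with regional medians removed (adjusted p = 0.0372). An intron region at chr11:12814687-12815188 held 0.218, 0.591 and 0 CPM in control and 4.56, 3.64 and 2.86 CPM in DTP libraries, with a peak in 0 of 3 and 3 of 3 libraries (3.66, SE 0.57, adjusted p = 1.62e-06). In PC9 and H1975 the TEAD1 sum differed by -0.16 (adjusted p = 0.0145, summed adjusted p = 0.353) and -0.04 (adjusted p = 0.381). An intron region of TEAD1, chr11:12900494-12900995, was called higher in PC9 (1.34), H1975 (3.39) and HCC2935 (2.08), and a region upstream of it, chr11:12587543-12588044, in the same lines (0.63, 1.52 and 2.43). The authors' table assigns the first to TEAD1 in HCC2935 only and the second in PC9 and HCC2935, so the other values are of matched regions that are not members.

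TEAD3 moved in opposite directions in H1975 and HCC2935. Its gene sum rose in H1975 from 44.1, 44.3 and 49.1 CPM to 71.3, 70.4 and 70.4 CPM (0.62, SE 0.06, adjusted p = 2.28e-16, summed adjusted p = 5.35e-06) and fell in HCC2935 from 174, 156 and 167 CPM to 97.8, 93.5 and 101 CPM (log2 change -0.77, SE 0.07, adjusted p = 1.68e-09). An intron region moved the same way as the sum in both lines. In H1975, chr6:35485536-35486037 rose from 2.94, 2.42 and 3.91 CPM to 7.42, 7.26 and 7.50 CPM (1.25, SE 0.20, adjusted p = 7.32e-09, summed adjusted p = 0.000488), and in HCC2935, chr6:35485540-35486041 fell from 15.9, 14.2 and 17.2 CPM to 5.51, 5.13 and 6.49 CPM (log2 change -1.47, SE 0.21, adjusted p = 2.54e-07). A difference in this region's change between lines was called in the joint fit (adjusted p = 8.09e-09), which assumed 1 spread for all lines. The start of TEAD3 in H1975 rose too, from 2.78, 3.36 and 3.64 CPM to 8.70, 7.37 and 7.39 CPM (1.24, SE 0.19, adjusted p = 3.56e-09).

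TEAD4 rose by gene sum in H1975 (0.36, SE 0.06, adjusted p = 6.07e-09, summed adjusted p = 0.00786), and the sums of PC9 (0.06) and HCC2935 (0.17) were not called. Near its start, however, single regions rose in PC9 and HCC2935. In PC9 chr12:2960543-2961044, 599 bases inside the gene, rose from 8.58, 10.1 and 11.4 CPM to 22.1, 18.0 and 21.5 CPM (1.02, SE 0.16, adjusted p = 4.91e-09, summed adjusted p = 0.000804). In HCC2935 the start region held 14.4, 20.7 and 16.0 CPM against 27.2, 27.0 and 30.7 CPM (0.75, SE 0.15, adjusted p = 8.98e-05). TEAD2 had 1 region in H1975, in an intron, and its sum fell from 7.26, 8.64 and 7.58 CPM to 3.76, 3.99 and 4.01 CPM (log2 change -1.0, SE 0.20, adjusted p = 5.42e-06, summed adjusted p = 0.000977). TEAD2 had no annotated region in HCC827 and was not called in PC9 or HCC2935.

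LATS1 and LATS2, the kinases above YAP1 and TAZ, had smaller changes. The LATS2 gene sum had a positive change in all 4 lines, called in H1975 and HCC2935, and with regional medians removed in HCC2935 (0.24, adjusted p = 0.0342) and not in H1975 (0.027, adjusted p = 0.656). Its sum was 74.0, 67.0 and 71.7 CPM in HCC2935 control and 102, 92.9 and 87.4 CPM in DTP libraries (0.40, SE 0.09, adjusted p = 0.000471). In HCC827 it was 40.7, 45.4 and 45.7 CPM against 58.7, 69.8 and 83.0 CPM, groups that did not overlap, with a difference of 0.70 (SE 0.21, adjusted p = 0.105, or 0.0143 with the replicate block). The change was 0.12 in H1975 (adjusted p = 0.0187, summed adjusted p = 0.433, and 0.0842 on the log2 scale and no longer called without DTP replicate 2) and 0.15 in PC9 (adjusted p = 0.052), with neighbourhood medians of 0.13 and 0.14. An upstream region of LATS2, chr13:21079632-21080133, at a distance of -18046 bases from the start, rose in H1975 from 1.55, 1.08 and 1.35 CPM to 4.35, 6.01 and 4.37 CPM (1.89, SE 0.27, adjusted p = 1.71e-10, summed adjusted p = 1.67e-05). LATS1 rose in H1975 by 0.38 (SE 0.12, adjusted p = 0.00279, summed adjusted p = 0.0802) and fell in HCC2935 by 0.49 (SE 0.15, adjusted p = 0.00906), where regions within 5 Mb had a median of -0.28 and the change was -0.27 (adjusted p = 0.169) with regional medians removed.

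VGLL3 had the largest gene sum change of the members, in HCC2935. In HCC2935 its start region, chr3:86990917-86991418, held 0.874, 0.886 and 0.939 CPM in control and 6.65, 8.27 and 9.92 CPM in DTP libraries, with a peak in 0 of 3 and 3 of 3 libraries. The change was 3.17 on the log2 scale (SE 0.36, adjusted p = 1.42e-09) and 2.97 with regional medians removed, and the gene sum rose from 3.57, 2.00 and 2.69 CPM to 14.6, 16.2 and 17.2 CPM (2.48, SE 0.25, adjusted p = 4.46e-09). VGLL3 encodes a TEAD cofactor, and its start also rose in PC9, from 18.1, 18.0 and 18.6 CPM to 29.2, 28.6 and 22.3 CPM (0.55, SE 0.13, adjusted p = 0.00018). There the summed adjusted p was 0.0683, regions within 5 Mb had a median of 0.48 and the change was 0.13 (adjusted p = 0.49) with regional medians removed. In HCC827 the start held 8.97, 15.9 and 17.7 CPM against 33.0, 26.8 and 26.1 CPM, with every DTP library above every control, a difference of 1.00 (SE 0.38, adjusted p = 0.491, or 0.0671 with the replicate block). H1975 had no region over the VGLL3 start and none assigned to the gene. VGLL4, the competitor of YAP1 for TEAD, had 22 regions in H1975, where its sum was not called (-0.07, adjusted p = 0.0529). It fell by 0.22 in PC9 (SE 0.04, adjusted p = 3.36e-06, summed adjusted p = 0.142) and by 0.26 in HCC2935 (SE 0.09, adjusted p = 0.0131), where the neighbourhood median was -0.32 and the change 0.05 (adjusted p = 0.704) with regional medians removed.

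**Figure D4:**
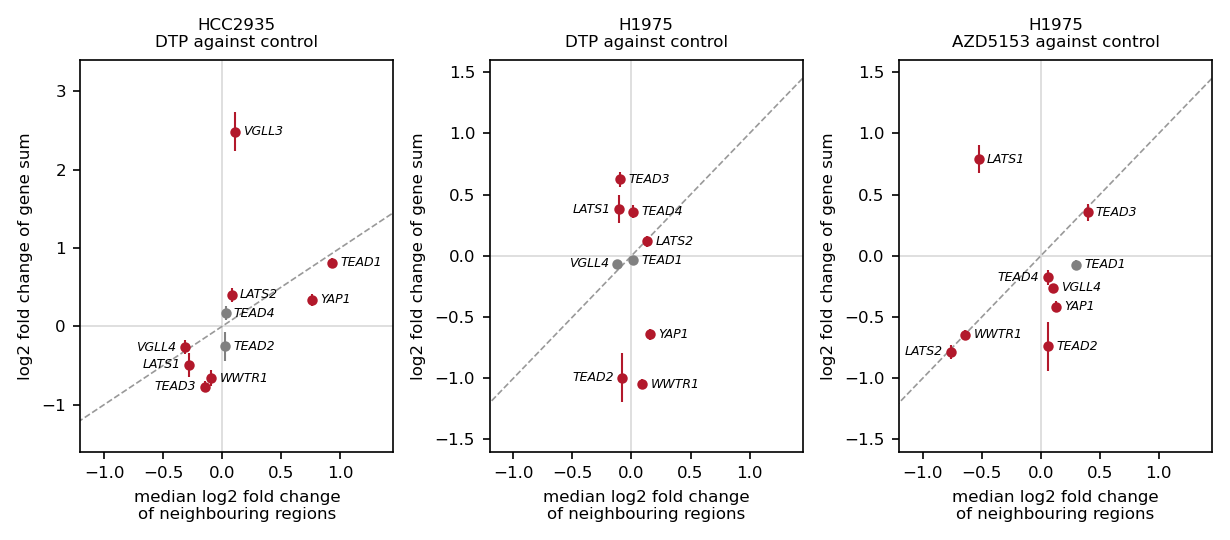
Log2 fold change of the gene sum of each member (vertical, with SE bars) against the median log2 fold change of tested regions within 5 Mb (horizontal), with called genes in red and a dashed line where both are equal. YAP1, TEAD1, LATS1 and VGLL4 in HCC2935 and WWTR1, LATS2 and TEAD3 after AZD5153 in H1975 lie nearer the dashed line than VGLL3 in HCC2935 or LATS1 in H1975.

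Regions with a counterpart in all 4 lines were compared in 1 joint fit, which asked whether the DTP change differed between lines. It did so for 37 of 70 member regions, against 37.2% of all matched regions. With HCC827 left out, the count was 55 of 81, against 43.8%. Both fits used 1 spread per region for all lines and no replicate block, although the lines differed in spread. Of 110 places matched in at least 3 lines and assigned to a member in at least 1, 4 were called in the same direction in at least 3: the internal start and an intron of WWTR1, lower, and the intron and upstream regions of TEAD1, higher. The upstream TEAD1 place was called in PC9 by edgeR at an adjusted p of 0.0424. The share of all matched places called the same way was not computed, so this count only describes the members.

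When AZD5153 followed osimertinib, the internal WWTR1 start was not called against DTP cells in any line, VGLL3 rose further in HCC2935, and TEAD2 fell in PC9. Gene sums called were 7 of 10 in PC9, 1 higher and 6 lower, against 33.1% of all genes (15.6% and 17.5%). In H1975 they were 4 of 9, 2 in each direction, against 39.1% (19% higher, 20.1% lower). In HCC2935 they were 3 of 10, 1 higher and 2 lower, against 15.2% (4.31% and 10.9%). In HCC827 they were 0 of 8 by edgeR and DESeq2, against 0% of all. There 1 had an unadjusted edgeR p under 0.05, against 8.88% of all genes. With libraries summed, 1 member was called in PC9, against 9.24% of all genes, and 1 in H1975, against 7.75%. Member regions called were 22 of 78 in PC9 (22.3% of all), or 4 with libraries summed (5.85% of all). In H1975 they were 25 of 89 (21% of all), or 5 with libraries summed (2.29% of all). HCC827 had 0 of 33 by both tools (0% of all), with 1 at an unadjusted edgeR p under 0.05 (2.63% of all). HCC2935 had 9 of 76 (8.31% of all). The HCC2935 count was between 1 and 4 when any 1 of the 6 DTP and combination libraries was left out, and DESeq2 called 1.

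The member sum called with libraries summed in PC9 was TEAD2, which fell by 0.80 (SE 0.18, adjusted p = 0.000119, summed adjusted p = 0.0133), from 15.7, 18.1 and 16.9 CPM in DTP to 9.82, 10.3 and 8.97 CPM in combination libraries. WWTR1 fell by a further 0.30 in PC9 (SE 0.09, adjusted p = 0.00253, summed adjusted p = 0.141; not called without DTP replicate 3, at -0.22), from 57.6, 60.2 and 70.1 CPM to 55.3, 46.1 and 50.4 CPM. In H1975 WWTR1 instead rose by 0.24 (SE 0.04, adjusted p = 1.09e-06, summed adjusted p = 0.179), from 120, 121 and 134 CPM to 152, 148 and 145 CPM. Its internal start in H1975 held 8.40, 10.5 and 8.89 CPM in the combination and was not called (adjusted p = 0.175), while the region next to it, chr3:149575518-149576019, rose from 5.50, 5.33 and 5.82 CPM to 13.5, 11.7 and 12.7 CPM (1.18, SE 0.14, adjusted p = 2.16e-12, summed adjusted p = 0.000347). The upstream WWTR1 start in H1975 rose again, to 17.2, 18.3 and 19.5 CPM (1.15, adjusted p = 1.5e-15, summed adjusted p = 0.00219). The PC9 and HCC2935 internal starts held 2.68, 1.86 and 2.66 CPM and 4.65, 5.33 and 2.42 CPM and were not called (adjusted p = 0.951 and 0.485).

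In H1975 the summed adjusted p kept TEAD4, which fell back by 0.34 (SE 0.05, adjusted p = 7.61e-08, summed adjusted p = 0.0474) after its rise in DTP cells, from 87.6, 87.5 and 88.7 CPM to 70.9, 72.8 and 65.4 CPM. In HCC2935 VGLL3 rose further, by 0.55 (SE 0.14, adjusted p = 0.00789), from 14.6, 16.2 and 17.2 CPM to 21.7, 23.7 and 25.0 CPM, with its start at 12.1, 12.8 and 13.7 CPM (0.63, adjusted p = 0.0302; not called without any of DTP replicates 1 and 2 or combination replicates 2 and 3). TEAD3 fell by a further 0.31 (SE 0.07, adjusted p = 0.00587), from 97.8, 93.5 and 101 CPM to 77.8, 77.7 and 80.9 CPM. An intron of WWTR1 in HCC2935, chr3:149650836-149651337, fell by 1.87 (SE 0.36, adjusted p = 0.000399), from 4.18, 5.95 and 3.24 CPM to 1.86, 1.01 and 0.805 CPM.

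AZD5153 alone was given to PC9 and H1975 cells, whose control libraries are shared with the DTP comparison. The LATS1 start rose and TEAD2 fell in both lines. Gene sums called were 4 of 10 in PC9, 1 higher and 3 lower, against 35.2% of all genes (16.5% and 18.7%), and 8 of 9 in H1975, 2 higher and 6 lower, against 78.2% (38.6% and 39.6%). Member regions called were 26 of 78 in PC9, against 25.8% (12 summed, against 11.6%), and 68 of 89 in H1975, against 58.1% (52 summed, against 41.3%). The LATS1 start, over the upstream sequence with the AP-1 motif, held 2.22, 3.55 and 4.22 CPM in PC9 control and 8.61, 6.49 and 5.63 CPM in AZD5153 libraries (1.01, SE 0.27, adjusted p = 0.00151, summed adjusted p = 0.0562). In H1975 it held 6.80, 5.25 and 7.01 CPM against 13.4, 12.9 and 13.8 CPM (1.08, SE 0.15, adjusted p = 1.53e-11, summed adjusted p = 0.000285), in a neighbourhood with a median of -0.53. DTP libraries of PC9 and H1975 held 3.65, 2.06 and 3.50 CPM and 7.81, 8.51 and 8.73 CPM there.

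TEAD2 by gene sum held 26.0, 15.2 and 23.3 CPM in PC9 control and 9.57, 7.35 and 7.82 CPM in AZD5153 libraries (log2 change -1.36, SE 0.18, adjusted p = 3.16e-12, summed adjusted p = 5.35e-07), and in H1975 it fell by 0.74 (SE 0.20, adjusted p = 0.000511, summed adjusted p = 0.0123), from 7.26, 8.64 and 7.58 CPM to 3.28, 4.64 and 6.04 CPM. The TEAD3 start went opposite ways, with the starting levels of the 2 lines far apart. In PC9 it fell from 20.3, 18.3 and 14.9 CPM to 7.42, 7.42 and 6.57 CPM (log2 change -1.30, SE 0.18, adjusted p = 1.64e-11, summed adjusted p = 8.16e-05), and in H1975 it rose from 2.78, 3.36 and 3.64 CPM to 6.84, 7.84 and 5.25 CPM (0.98, SE 0.20, adjusted p = 1.21e-05, summed adjusted p = 0.00949). The difference between the lines in this AZD5153 change was not tested. Regions within 5 Mb of TEAD3 had a median change of 0.40 in H1975 and -0.02 in PC9. With regional medians removed, the TEAD3 gene sum in H1975 changed by -0.012 (edgeR adjusted p = 0.887).

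The gene sums of both coactivators fell in H1975 after AZD5153, although the YAP1 sum over promoter regions only rose by 0.36 (edgeR adjusted p = 2.09e-05). YAP1 fell by 0.42 by gene sum (SE 0.05, adjusted p = 4.53e-15, summed adjusted p = 0.000411), while its start rose by 0.61 (SE 0.12, adjusted p = 4.92e-06, summed adjusted p = 0.0326), from 10.8, 12.5 and 10.7 CPM to 18.4, 19.3 and 14.8 CPM. The distal region chr11:102238502-102239003 fell by 4.60 (SE 0.22, adjusted p = 9.66e-53, summed adjusted p = 1.48e-31) to 0.903, 0.697 and 0.570 CPM, with a peak in 1 of 3 libraries against 3 of 3 in control. WWTR1 held 171, 158 and 166 CPM against 262, 258 and 257 CPM (log2 change -0.64, SE 0.04, adjusted p = 3.57e-33), equal to its neighbourhood median of -0.64, and fell by 0.24 with regional medians removed (adjusted p = 3.4e-06). Its internal start fell to 21.0, 19.5 and 19.3 CPM (log2 change -1.27, SE 0.09, summed adjusted p = 9.21e-10), and in PC9, by contrast, that start held 16.8, 16.5 and 15.0 CPM after AZD5153. LATS2 fell by 0.78 (SE 0.06, adjusted p = 5.8e-27) in a neighbourhood with a median of -0.76, and the change was -0.06 (adjusted p = 0.367) with regional medians removed. VGLL4 fell by 0.26 (SE 0.03, adjusted p = 1.75e-12, summed adjusted p = 0.0206), and its start from 24.4, 27.3 and 24.4 CPM to 14.3, 13.4 and 12.3 CPM (log2 change -0.93, SE 0.11, adjusted p = 4.73e-15). In PC9 the VGLL4 sum was not called (-0.06), but an intron region, chr3:11498664-11499165, fell from 9.85, 7.35 and 11.7 CPM to 1.20, 1.62 and 2.35 CPM (log2 change -2.46, SE 0.29, adjusted p = 6.64e-15, summed adjusted p = 1.2e-07), and a second start, chr3:11642666-11643167, rose from 3.18, 2.54 and 4.46 CPM to 6.46, 8.81 and 7.51 CPM (1.15, SE 0.26, adjusted p = 0.000147, summed adjusted p = 0.0195).

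The change after AZD5153 in DTP and in control cells was compared by an interaction term, combination against DTP minus AZD5153 against control. Whether osimertinib stayed on in the last 3 days of the combination is not stated. A different response to AZD5153 and an effect of stopping osimertinib therefore cannot be told apart. In PC9 the interaction was called for 18 of 78 member regions and 3 of 10 gene sums, against 13.8% of all regions and 23% of all genes. In H1975 it was called for 55 of 89 regions and 6 of 9 gene sums, against 42.5% and 70.3%. The PC9 gene sum count was 3 to 6 when 1 library was left out, 6 without control replicate 2 and 5 without combination replicate 2. In H1975 it was positive for WWTR1 (0.89, SE 0.06, adjusted p = 8.75e-30, summed adjusted p = 8.88e-08), where the change after AZD5153 was -0.64 in control cells and 0.24 in DTP cells. Regions within 5 Mb of WWTR1 had a median of 0.63 for this term, and with regional medians removed the value was 0.47 (adjusted p = 9.7e-09). It was negative for LATS1 (-0.72, SE 0.16, adjusted p = 2.51e-05, summed adjusted p = 0.0122), in a neighbourhood with a median of 0.60. The distal YAP1 region chr11:102238502-102239003 had the largest value (4.80, SE 0.36, adjusted p = 4.3e-28): it held 3.02, 3.49 and 3.04 CPM in the combination, above the 0.903, 0.697 and 0.570 CPM of AZD5153 alone. In PC9 with libraries summed, edgeR called 0 gene sums, against 4.80% of all genes, with 2 at an unadjusted p under 0.05, against 16% of all genes. DESeq2 on single libraries called 3.

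The other genes of the pathway, a list of 25 upstream kinases, adaptors, junction proteins and further vestigial-like genes, are given by their counts beside the shares of all genes above. In DTP against control cells 3 rose and 6 fell of 25 in PC9, 9 rose and 10 fell of 24 in H1975, none was called of 20 in HCC827, and 10 rose and 3 fell of 23 in HCC2935. Their median changes were -0.09, -0.05, 0.22 and 0.16. VGLL2, a vestigial-like TEAD cofactor known from muscle, had the largest change of the list: its single region in H1975 held 0.181, 0.314 and 0.494 CPM in control and 26.5, 21.0 and 21.3 CPM in DTP libraries (6.0, SE 0.26, adjusted p = 1.44e-44). In the combination it held 8.13, 10.2 and 9.36 CPM and after AZD5153 alone 0.657, 0.232 and 0.453 CPM. STK4, an upstream kinase of LATS, changed by 1.40 in H1975, AMOT, which binds YAP1, by 1.32, and AMOTL1, its relative, by -1.38, all called. FAT4, a protocadherin above the cascade, rose by 1.47 in H1975 and by 1.16 in HCC2935. VGLL2, STK4, AMOT, AMOTL1 and FAT4 lie outside the naming rules, by which this list was read as counts only. Their neighbourhoods were not examined. Against DTP, the combination had 3 higher and 6 lower in PC9, 5 and 5 in H1975, none called in HCC827, and 2 and 5 in HCC2935, and AZD5153 alone had 5 higher and 7 lower in PC9 and 10 and 12 in H1975.

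The 6 genes listed as known targets of YAP1 and TAZ (CCN1, CCN2, ANKRD1, AXL, F3 and CRIM1) had no shared direction in DTP cells. In PC9 CCN2 (0.34) and F3 (0.28) rose and CRIM1 fell (-0.69). In H1975 ANKRD1 (1.12) and CRIM1 (0.19) rose and AXL (-0.79) and CCN1 (-0.23) fell. In HCC2935 ANKRD1 (0.83) and AXL (0.44) rose and CCN2 (-0.26) and CRIM1 (-0.41) fell, and in HCC827 none of 6 was called. Against DTP, 3 of 6 were lower in combination libraries of PC9 (17.5% of all genes), 4 were higher in H1975 (19% of all) and 1 in HCC2935 (4.31% of all). After AZD5153 alone 2 were higher in PC9 (16.5% of all), and 3 were higher and 3 lower in H1975 (38.6% and 39.6% of all).

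Across the 42 libraries, centred within each line, the gene sums most like WWTR1 among 2898 genes on other chromosomes were EPCAM-DT (Pearson r = 0.949), LINC01800 (0.932) and STX1A (0.928). For YAP1 they were SHC3 (0.836), RELL1 (0.791) and RAI14 (0.758). These correlations describe a ranking, and the libraries of a group share their treatment.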

How the data were processed

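For each line the authors deposited raw counts per region and library, an annotated subset of these regions with the same counts, and a peak list per library whose q value is given as −log10. The submitters' processing notes name BWA 0.7.17, SAMtools 1.9, deepTools 3.4, MACS2 2.2.6, featureCounts 2.0.0, ChIPseeker 1.29.1 and hg38, with no role or order. Titles and design text give ATAC-seq, the extraction protocol describes H3K27ac ChIP, and the values were read as ATAC-seq. How these regions were selected is not stated by any source read here.

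Libraries were grouped by their labels. One quasi-likelihood model per line was made in edgeR 4.0.16, R 4.3.3 (TMM factors, filterByExpr, all groups together), over all regions and, separately, over counts summed by gene. The fits kept the default prior count of edgeR. A prior count of 2 was used only for the log CPM behind the regional medians and the comparison of same-numbered libraries. Calls used a Benjamini-Hochberg adjusted p under 0.05 over everything tested in the line. The SE is the log2 fold change divided by the square root of F. Matched regions (reciprocal overlap of at least 50%) entered the joint fit. The code was tested on simulated DTP and control libraries, with 200 regions or gene sums per line changed 2-fold. For HCC827, 0.0% of the changed regions and 30.5% of the changed gene sums were recovered. Recovery of regions was 37.0% (HCC2935), 37.5% (PC9) and 42.0% (H1975). Recovery of gene sums was 93.5% (HCC2935), 95.5% (PC9) and 98.5% (H1975).

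Named regions were each member's start region, the annotated region nearest a transcription start, and, of called regions above the median count whose groups did not overlap, the 3 that rose most and the 3 that fell most in DTP cells (1 each in other contrasts, where the interaction needed no separation), and up to 5 places called the same way in at least 3 lines. Likeness to YAP1 or WWTR1 was the correlation of log2 CPM over genes on other chromosomes with a mean of at least 100 counts. Members, lists and rules were chosen with earlier results of these data known. One marker gene of other cell types is not reported here. Alternatives were DESeq2 1.42.0, library size only, filters, promoter or near-start regions, libraries left out, the replicate number as a block, regional medians (of 10 Mb bins) removed, and, in PC9 and H1975, the libraries of a group summed to 1 sample with the dispersion trend of HCC2935. A library was given a peak where its list overlapped a region.

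Same-numbered libraries of HCC827 deviated together (r 0.16 to 0.85 over 9 pairings), so the blocked value is given where it changes a call. So did the DTP and combination libraries of HCC2935 (r 0.16 to 0.31 over 3 pairs), but not its control libraries with either (r -0.20 to 0.035). In PC9 and H1975 r was between -0.053 and 0.030.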

Additional observations from a re-analysis of the deposited data

Results flagged for a closer look

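The interaction term in edgeR was called for 18 member regions and 3 member gene sums in PC9 and for 55 regions and 6 gene sums in H1975. It compares the change after AZD5153 in DTP and control cells, with the limit given above on whether osimertinib stayed on. In PC9 the gene sums were WWTR1 (-0.43), TEAD1 (0.30) and VGLL3 (-0.39), as combination against DTP minus AZD5153 against control on the log2 scale. In H1975 they were YAP1 (0.42), WWTR1 (0.89), TEAD3 (-0.46), LATS1 (-0.72), LATS2 (0.85) and VGLL4 (0.44). With the libraries of a group summed and the HCC2935 spread assumed, edgeR called none of the PC9 sums (adjusted p = 0.18 for WWTR1, adjusted p = 0.353 for TEAD1 and adjusted p = 0.254 for VGLL3), while the H1975 sums all passed, from adjusted p = 9.32e-07 for LATS2 to adjusted p = 0.0244 for TEAD3. With regional medians removed, LATS2 (0.09) and TEAD3 (-0.12) were no longer called, and WWTR1 was 0.47. Neighbourhood medians of this term were 0.63 at WWTR1, 0.71 at LATS2 and -0.38 at TEAD3. By the naming rule, the largest positive and negative regions were chr3:11498664-11499165 in VGLL4 (2.36) and chr11:102267521-102268022 near YAP1 (-1.57) in PC9, and chr11:102238502-102239003 near YAP1 (4.80) and chr11:12809851-12810352 in TEAD1 (-2.60) in H1975.

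The TEAD1 intron region in H1975 held 1.55, 1.61 and 1.48 CPM in control, 6.71, 6.10 and 5.36 CPM after AZD5153, 1.41, 1.59 and 0.896 CPM in DTP and 0.656, 0.997 and 0.788 CPM in combination libraries. The YAP1 region in PC9 held 5.40, 3.30 and 4.22 CPM, 7.18, 6.26 and 6.57 CPM, 8.51, 8.25 and 6.76 CPM, and 4.15, 4.51 and 3.73 CPM in the same order. In the joint fit, with 1 spread per region for all lines, a difference in the DTP change between the 4 lines was called for 37 matched member regions.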

How the results depend on the processing

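Of the counts of called members, 345 kept within 1.5 times under the alternatives and 53 did not. Counts of called regions are given in the order DTP against control, combination against DTP, AZD5153 against control and interaction. In PC9, regions within 10 kb of a start gave 16, 11, 15 and 8, a mean count of at least 50 gave 6, 6, 6 and 7, and libraries summed gave 10, 4, 12 and 5. DESeq2 gave 16, 10 and, for the interaction, 8, and no filter gave 9 for the interaction. In H1975 near-start regions gave 31, 15, 38 and 31, the higher count minimum 30 for DTP, 35 for AZD5153 and 32 for the interaction, libraries summed 35 for DTP, 5 for the combination and 34 for the interaction, and DESeq2 10 for the combination. In HCC2935 DTP against control gave 24 near starts and 13 at the higher minimum, and the combination 5 near starts, 5 at the higher minimum, 1 by DESeq2, 2 with no filter, 4 with regional medians removed and 1 to 4 without 1 library. The near-start and count alternatives test fewer regions, and the cause of the other shifts was not tested. With libraries summed, the shares of all regions called in PC9 were 16.2%, 5.85%, 11.6% and 3.61% in that order. In H1975 they were 33.1% for DTP, 2.29% for the combination and 24.1% for the interaction. Gene sums moved to 2 (promoter regions only) and 1 (summed) for DTP and 1 for the combination in PC9, 2 (DESeq2 and summed) for AZD5153 and 0 (summed) for the interaction, where leaving out 1 library gave 3 to 6 (6 without control replicate 2, 5 without combination replicate 2). With libraries summed, 21.4%, 9.24%, 14.1% and 4.8% of all genes were called in PC9, in the order given for regions. In H1975 the combination moved to 1 (summed, against 7.75% of all genes). In HCC2935 DTP moved to 5 with regional medians removed and the combination to 1 by DESeq2. Shares of all features under the other alternatives are not set beside these counts, so those counts describe the members only.

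With the replicate number as a block, HCC827 had 2 called regions and 2 called gene sums in DTP against control, WWTR1 (adjusted p = 0.0129) and LATS2 (adjusted p = 0.0143), where 3.88% of all regions and 10.3% of all genes were called. For the combination against DTP in HCC2935 it gave 10 regions and 3 gene sums, against 9 and 3 without it. The block changed no other count of members by over 1.5 times.

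Of single gene sums and regions, 18 values turned sign. With promoter regions only, TEAD1 turned to 0.19 (DTP), -0.016 (combination) and -0.072 (interaction) in PC9 and to 0.33 (DTP), 0.40 (AZD5153) and -0.45 (interaction) in H1975, YAP1 in H1975 to 0.36 (AZD5153) and -0.29 (interaction), and LATS2 in HCC2935 to 0.093 (combination). With regional medians removed, VGLL3 turned to -0.29 (DTP) and YAP1 to 0.14 (combination) in PC9, the LATS2 start to 0.25 and TEAD3 to -0.012 in H1975 after AZD5153, and in HCC2935 DTP cells YAP1 turned to -0.30, its start to -0.025, TEAD1 to -0.075 and VGLL4 to 0.046. With library size only, TEAD1 in H1975 DTP cells turned to 0.082.

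The median tested region held a mean of 16.8 counts per library in PC9, and 17.3 (H1975), 14.9 (HCC827) and 17 (HCC2935) in the others, so single regions were measured less precisely than gene sums.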
